A study of Rattus norvegicus with 6 samples.

Results

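Retinal ganglion cells (RGCs) are the neurons that carry the output of the retina to the brain, and they fall into many types that differ in shape, visual response and gene expression. The genes described here are 8 markers of RGC types, chosen by name: Opn4, Eomes, Tbr1, Satb1, Foxp1, Foxp2, Cartpt and Spp1. Of the 8, 7 were analysed among the 17366 transcripts of the deposited table, 1 transcript per gene symbol, and Eomes was not analysed here. The values are FPKM, fragments scaled to transcript length and to the reads of the library. Levels are compared on this scale between genes and between libraries, but it does not adjust for differences in the RNA make-up of the libraries.

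The RNA came from cultured RGCs of Sprague Dawley rats labelled P5, a postnatal age, which had been kept in culture for 10 days. Chrdl1 (chordin-like 1) is secreted and can bind bone morphogenetic proteins; 3 libraries came from cultures given it for 12 h at 1 µg/ml. The other 3 came from cultures given vehicle, 0.1% BSA with 4 mM HCl. Every vehicle library shares a 6-digit title code with a Chrdl1 library, which gives pairs A, B and C, numbered as replicates 1, 2 and 3. The labels say neither what the code stands for nor whether a group's libraries derive from different animals, so p-values measure only the spread between these libraries.

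In mouse retina, where most of this is known, Opn4 marks the intrinsically photosensitive RGCs, which set the body clock and the pupil reflex. Spp1 marks the large alpha RGCs, and Cartpt with Satb1 marks cells that respond to the direction of motion. Tbr1 marks types whose dendrites end in the layer for light decrements, among them J-RGCs, and Foxp1 and Foxp2 mark the small F-RGCs. A bulk library holds the RNA of all cells of a culture, so fewer cells of a type and less RNA per cell cannot be told apart for any gene below.

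All 7 genes were detected in all 6 libraries, from 0.582 to 1.11 FPKM for Foxp2 up to between 181 and 460 FPKM for Cartpt. By mean FPKM over the 6 libraries the order was Cartpt (312.5), Spp1 (28.3), Satb1 (14.2), Foxp1 (8.59), Tbr1 (2.64), Opn4 (2.002) and Foxp2 (0.760). Cartpt stood above 99.6% of the transcripts in the table, Spp1 above 84.6% and Satb1 above 72.0%. Tbr1 and Opn4, at the 47.4th and 44.96th percentiles, were neighbours in this order with overlapping ranges, 1.65 to 3.53 FPKM for Tbr1 and 1.66 to 2.37 FPKM for Opn4. Spp1 spanned 7.04 to 52.9 FPKM and so also overlapped Satb1, at 12.2 to 16.6 FPKM, and Foxp1, at 6.78 to 10.5 FPKM.

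**Figure D1:**
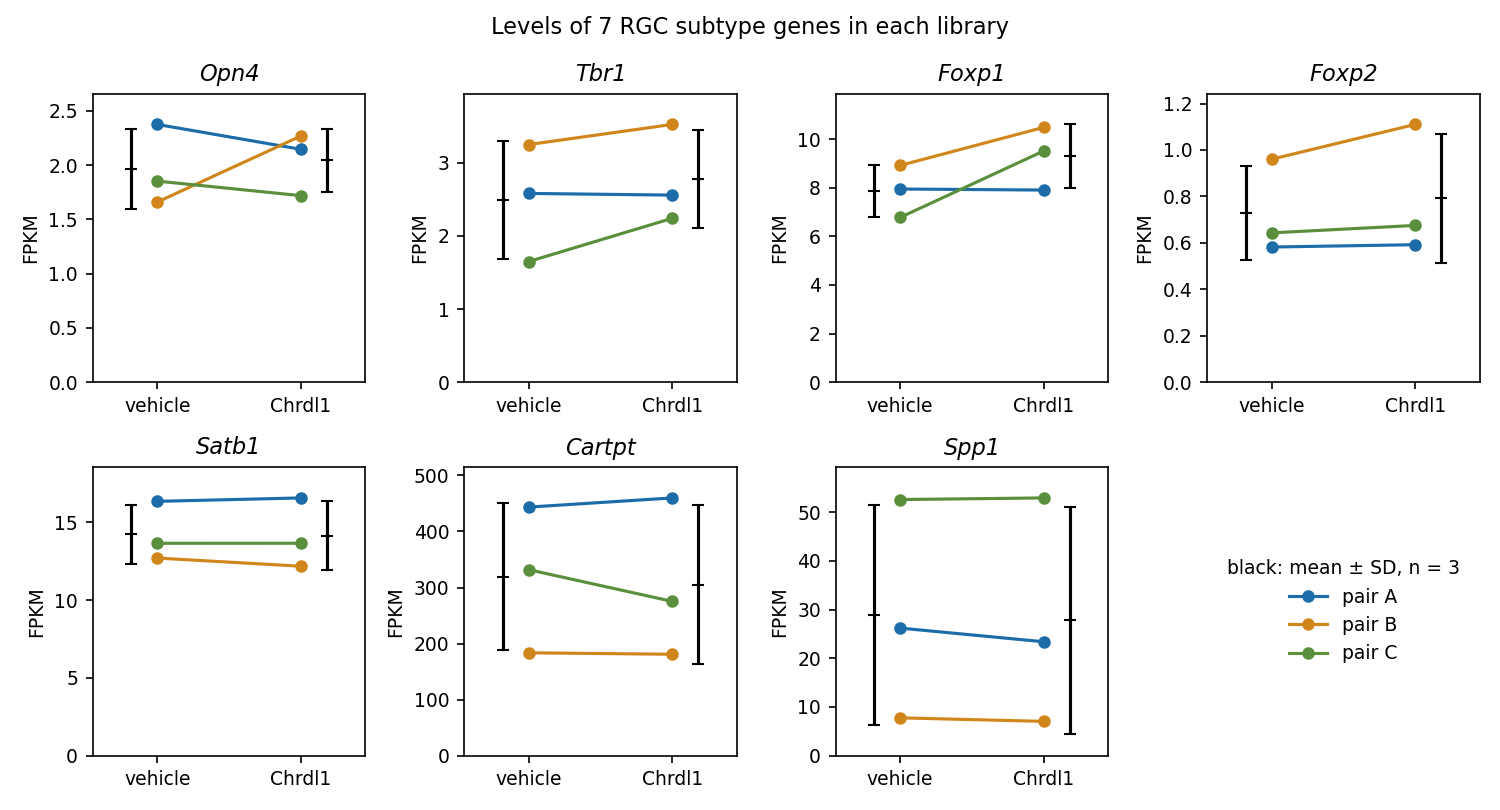
FPKM (vertical axes, from 0) of 7 RGC type genes in the vehicle and Chrdl1 libraries; coloured lines join the libraries of a pair and black bars give mean ± SD over 3 libraries. Cartpt runs from 181 FPKM in pair B to 460 FPKM in pair A, and Spp1 from 7.04 FPKM in pair B to 52.9 FPKM in pair C; the steepest line of Foxp1 is that of pair C, from 6.78 to 9.52 FPKM.

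Opn4 encodes melanopsin, the photopigment that makes a small group of RGCs sensitive to light. Its transcript lies on the minus strand of chromosome 16, from 10943386 to 10952549 of build rn6. It was at 2.37, 1.66 and 1.85 FPKM in vehicle libraries A, B and C and at 2.15, 2.27 and 1.72 FPKM in the Chrdl1 libraries. The highest library was vehicle A and the lowest vehicle B, and the 2 groups overlapped. These levels rest on 54 to 130 reads per library, and the 95% exact Poisson intervals, which cover counting error only, ran from 1.98 to 2.82 FPKM for the highest library and from 1.25 to 2.17 FPKM for the lowest. The intervals of all 6 libraries overlapped.

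Tbr1 is a T-box transcription factor, which in mouse RGCs controls where dendrites end. It lies on the plus strand of chromosome 3, from 47677720 to 47685902. Its level was 2.58, 3.25 and 1.65 FPKM in vehicle libraries A, B and C, and 2.56, 3.53 and 2.24 FPKM in the Chrdl1 libraries. Both libraries of pair B were above the other 4 and both libraries of pair C below, from 88 to 162 reads each.

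The forkhead factors Foxp1 and Foxp2 are close relatives that repress transcription. Foxp1 lies on the minus strand of chromosome 4, from 131366885 to 131598304, and Foxp2 on the plus strand of the same chromosome, from 41364441 to 41942023. Foxp1 was at 7.95, 8.92 and 6.78 FPKM in vehicle libraries A, B and C, and at 7.91, 10.5 and 9.52 FPKM in the Chrdl1 libraries. Its values in pair A lay side by side, while in pair C the Chrdl1 library was the higher, with Poisson intervals of 8.70 to 10.4 FPKM against 6.13 to 7.48 FPKM for vehicle. Over all tested genes the libraries of each pair differed by more than counting error, those of pair C the most. The chi-square per degree of freedom was 13.3 in C, against 2.1 in A and 4.34 in B. Foxp2 was at 0.582, 0.960 and 0.643 FPKM in vehicle and at 0.592, 1.11 and 0.675 FPKM in Chrdl1 libraries, from 93 to 171 reads. As with Tbr1, both libraries of pair B were the highest. Foxp1 exceeded Foxp2 in every library, by 9.29 to 14.1 times.

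Satb1 encodes a chromatin organiser that binds AT-rich DNA. It lies on the plus strand of chromosome 9, from 2202511 to 2274631. It was at 16.4, 12.7 and 13.7 FPKM in vehicle libraries A, B and C, and at 16.6, 12.2 and 13.7 FPKM in the Chrdl1 libraries. Both libraries of pair A were above the rest and both of pair B below.

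Cartpt encodes the precursor of the CART neuropeptides, which are cut from it and secreted. The gene lies on the minus strand of chromosome 2, from 30125249 to 30127269. It was at 443, 184 and 332 FPKM in vehicle libraries A, B and C, and at 460, 181 and 275 FPKM in the Chrdl1 libraries. The pairs did not overlap: A was the highest, C lay between and B was the lowest. With 2229 to 9066 reads per library, counting error was small against these differences.

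Spp1 encodes osteopontin, a secreted phosphoprotein that binds integrins and CD44. In retina it is a marker of alpha RGCs, and activated microglia and macrophages also make it. The gene lies on the minus strand of chromosome 14, from 6673686 to 6679921. Its level was 26.2, 7.77 and 52.6 FPKM in vehicle libraries A, B and C, and 23.4, 7.04 and 52.9 FPKM in the Chrdl1 libraries. Here C was the highest pair and B the lowest, again with no overlap, from 167 to 2064 reads per library.

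The 250 bases before the start of Cartpt and Spp1 are shown because these genes differed most between the pairs; they are from RefSeq on build GRCr8, a later assembly than that of the table. The Cartpt stretch is chr2:32991236-32991485 and the Spp1 stretch chr14:5619805-5620054, both on the minus strand and printed 5′ to 3′ in the direction of the gene. Capitals mark matches to the motifs named below.
Cartpt: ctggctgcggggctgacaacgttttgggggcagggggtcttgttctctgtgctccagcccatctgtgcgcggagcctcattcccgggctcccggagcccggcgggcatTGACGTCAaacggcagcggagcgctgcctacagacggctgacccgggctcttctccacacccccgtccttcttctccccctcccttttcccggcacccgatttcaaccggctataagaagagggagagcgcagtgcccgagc
Spp1: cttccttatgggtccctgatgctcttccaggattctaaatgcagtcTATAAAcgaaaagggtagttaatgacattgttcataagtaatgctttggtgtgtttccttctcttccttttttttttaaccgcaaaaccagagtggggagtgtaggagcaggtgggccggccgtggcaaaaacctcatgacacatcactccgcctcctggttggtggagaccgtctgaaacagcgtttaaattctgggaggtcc
Cartpt holds the full cyclic AMP response element TGACGTCA, 142 bases before its start, which 1.59% of 33469 such promoter stretches hold. Spp1 holds the letters TATAAA, 204 bases before its start, as do 12.9% of the stretches on either strand. Searched on both strands, without overlap between motifs in these stretches, were also CCAAT (in 34.0% of all stretches), GGGCGG (30.5%), TGANTCA (6.34%), TCACACCT (0.959%), GGCGCC (8.70%) and CACGTG (5.59%). These 6 had no match in the 6 members with an entry, which are the genes analysed other than Foxp2. Foxp1 also holds TATAAA, on the opposite strand. Cartpt was richer in G and C than most, at 65.6% against 46.8% for Spp1 and a median of 51.2%.

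The treatment comparison addresses the question of whether added Chrdl1 altered these genes within 12 h. None of the members was called, and for all 7 the ranges of the vehicle and Chrdl1 libraries overlapped. Of the 10390 genes with at least 1 FPKM in at least 3 libraries, limma called 0, or 0%, at an adjusted p under 0.05, and 18 (0.173%) were at an unadjusted p under 0.05. The 6 members tested, all but Foxp2, were among neither. Tested genes above vehicle in all 3 pairs came to 7.55% and genes below it in all 3 to 19.5%, and 0 tested members did either. Foxp2, outside the test, was above vehicle in all 3 pairs, by 0.009, 0.11 and 0.028 on the log2 scale. The log2 fold changes of the 6 tested members, on the log2(FPKM + 1) scale, had a median of 0.015 against -0.028 over all tested genes, with 3 above and 3 below 0. This scale understates changes of low genes such as Opn4 and Tbr1.

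Foxp1 had the largest of these values, at 7.88 ± 1.07 FPKM (SD, n = 3) in vehicle and 9.30 ± 1.30 FPKM (n = 3) in Chrdl1 libraries. The log2 fold change was 0.21 ± 0.15 (SE), with a 95% interval from -0.15 to 0.58 (limma adjusted p = 0.9998). By pair it was -0.007, 0.21 and 0.44 in A, B and C. Tbr1 was at 2.49 ± 0.804 FPKM in vehicle and 2.78 ± 0.669 FPKM in Chrdl1 libraries, a log2 fold change of 0.12 ± 0.23 with pair values of -0.009, 0.09 and 0.29. Neither factor was above vehicle in pair A, and both had their highest fold change in pair C, whose fold changes had a median of -0.055 over all tested genes.

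The other members lay closer to 0. Opn4 was at 1.96 ± 0.370 FPKM in vehicle and 2.04 ± 0.288 FPKM in Chrdl1 libraries, a log2 fold change of 0.042 ± 0.18, and only pair B (0.30) was above 0. Satb1, at 14.2 ± 1.89 FPKM in vehicle and 14.1 ± 2.23 FPKM with Chrdl1, gave -0.013 ± 0.15. In this fit, without the title code, the interval of Satb1 ran from -0.36 to 0.34 and was narrower than those of the secreted factors. With the code as a block the errors were alike, with an SE of 0.077 for Satb1, 0.075 for Cartpt and 0.072 for Spp1. Cartpt, at 319.6 ± 130.4 FPKM in vehicle and 305.3 ± 142 FPKM in Chrdl1 libraries, had a log2 fold change of -0.079 ± 0.42 (SE). Spp1, at 28.9 ± 22.5 and 27.8 ± 23.3 FPKM, gave -0.091 ± 0.84. Their wide errors come with the distance between the pairs. Foxp2 reached 1 FPKM in a single library and was outside this test; without a filter it had a log2 fold change of 0.048 ± 0.15 (limma adjusted p = 1).

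Without the title code in the model, differences between codes widen the error, and on simulated data that fit did not recover added changes, so its count of 0 says little. Taking the code as a block narrowed the intervals without adding a call. The block gave 0 called genes (0%) and 535 (5.15%) at an unadjusted p under 0.05; no tested member was among them. Under it the interval for Foxp1 was -0.006 to 0.43 (limma adjusted p = 0.872) and for Tbr1 -0.13 to 0.38. The interval was -0.24 to 0.32 for Opn4, -0.18 to 0.15 for Satb1, -0.24 to 0.083 for Cartpt and -0.25 to 0.066 for Spp1. A change of 1 on the log2 scale, in either direction, thus lies outside all 6 unadjusted intervals. The voom test on whole reads recovered from FPKM also called 0; its unadjusted p was under 0.05 for 4 genes, and for 488 once the block was added. Foxp1 was 1 of the 488 (unadjusted p = 0.0278, limma adjusted p = 0.939). With the block, its unadjusted limma p was also under 0.05 with a length correction (0.0326, adjusted 0.985) and without pair A (0.0273, adjusted 0.807). It was not with quantile normalization (0.0547), without pair B (0.0731) or without pair C (0.326).

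**Figure D2:**
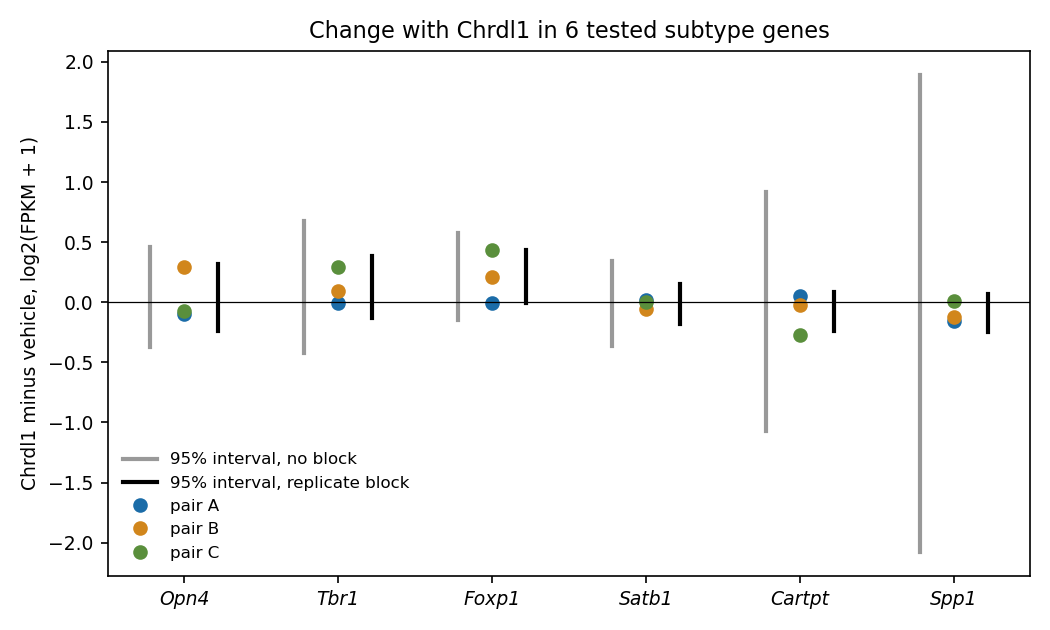
Log2(FPKM + 1) of Chrdl1 minus vehicle (vertical axis) for the 6 tested RGC type genes; points are the 3 pairs, grey bars the 95% limma intervals with no block and black bars those with the replicate block. All intervals cross 0, and the grey bar of Spp1, from -2.08 to 1.89, is the widest.

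Spp1, Cartpt, Satb1 and Tbr1 differed between the title codes. A limma F-test over the 3 codes, with treatment as a term, called 4930 of 10390 genes (47.4%) at an adjusted p under 0.05, and 4 of the 6 tested members, the genes just named. The count was 3148 without the Chrdl1 library of pair A. With so many genes called, a share of 4 of 6 is near the background and is not a result about the members. What set Spp1 and Cartpt apart was the size of the difference. The spread, highest minus lowest code, was 2.68 on the log2 scale for Spp1 (limma adjusted p = 5.7e-10) and 1.30 for Cartpt (7.4e-07), above 99.2% and 95.4% of tested genes, whose median was 0.32.

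Spp1 was 3.35 times higher in pair A than in pair B and 2.13 times higher in C than in A. A spread of at least 1 was found in 7.17% of tested genes, and the order of Spp1, with B lowest, A between and C highest and no overlap, in 9.62%. Cartpt was 2.48 times higher in A than in B, and its order, with A highest and B lowest, was shared by 3.47%. The peptide and osteopontin genes thus differed in their highest pair and shared their lowest. Both libraries of B lay below the other 4 for 3 tested members, Spp1, Cartpt and Satb1 (2075 tested genes, or 20%). They lay above the other 4 for Tbr1 (17.8%) and, outside the test, for Foxp2. Both of A lay above the rest for Cartpt and Satb1 (13.6%) and below for 0 tested members (22.7%), and both of C above for Spp1 (23.4%) and below for Tbr1 (14.7%).

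Tbr1 and Satb1 differed less; Satb1 had the order of Cartpt and Tbr1 another. Tbr1 had a spread of 0.58 (adjusted p = 0.0166), with B highest and C lowest, an order without overlap found in 5.47% of tested genes. Its call was lost without the vehicle library of pair C (adjusted p = 0.0803) or without a filter (0.0595). Satb1 had a spread of 0.38 (0.0153), with A highest; the call was lost without the vehicle (0.157) or the Chrdl1 library (0.243) of pair A. Foxp1 and Opn4 were not called, at spreads of 0.26 (0.161) and 0.23 (0.448), though Foxp1 passed (0.0430) without the Chrdl1 library of pair C. Foxp2, tested only without a filter, had a spread of 0.36 (0.0458).

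**Figure D3:**
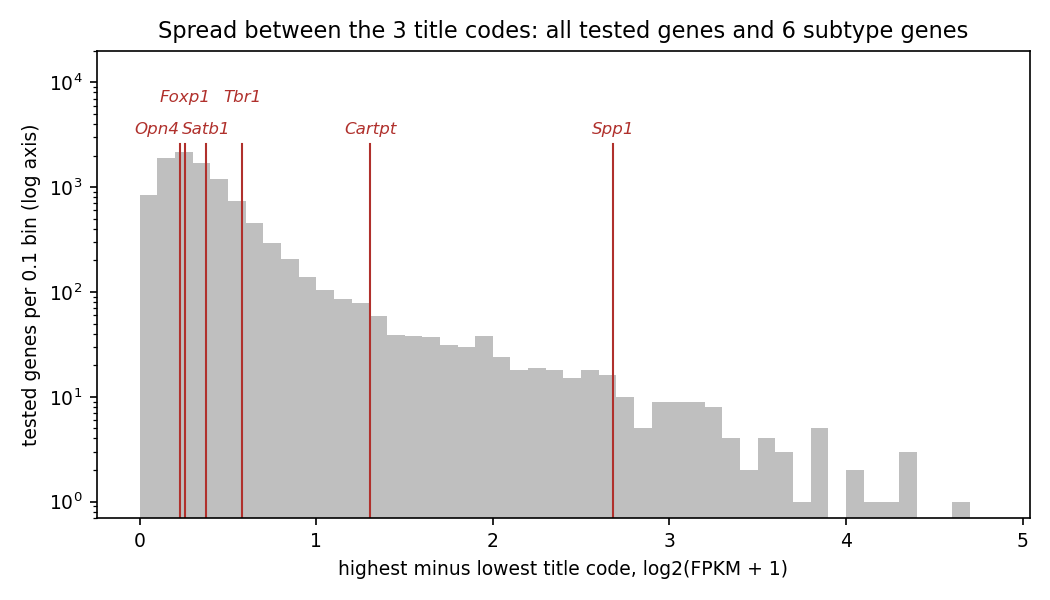
Number of tested genes (vertical log axis) by the difference between the highest and the lowest title code on the log2(FPKM + 1) scale (horizontal axis); red lines mark the 6 tested RGC type genes. Cartpt at 1.30 and Spp1 at 2.68 lie in the tail, and the other 4 lie in the bulk.

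Spp1 was lowest in pair B, as were many glial, vessel and connective tissue genes, given below, and most genes of microglia and macrophages. Of the 20 genes of that marker list, 18 had both B libraries below all others, against 20% of all tested genes, and 17 of 18 tested were called between codes, against 47.4%. In vehicle their summed level was 641, 148 and 743 FPKM for A, B and C; with Chrdl1 it was 546, 124 and 719 FPKM. The sum was 4.36 times higher in A than in B, against 3.35 times for Spp1, and 1.23 times higher in C than in A, against 2.13 times for Spp1. By gene, the medians over the 18 tested were -2.43 for B minus A and 0.26 for C minus A on the log2 scale. For Spp1 these differences were -1.62 and 1.06. Set against this sum, Spp1 came to 4.09% and 4.28% (A), 5.23% and 5.69% (B), and 7.08% and 7.36% (C). The part of these cells in the level of Spp1 was not tested.

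Single markers showed steps of differing size, and some barely differed between A and C. Csf1r, the receptor that microglia need to survive, averaged 17.0 FPKM in A, 1.32 FPKM in B and 17.2 FPKM in C, and the complement gene C1qa averaged 33.9, 1.60 and 39.8 FPKM. Gpnmb, a glycoprotein of phagocytes, averaged 159, 33.8 and 209 FPKM, and Lyz2, a lysozyme, was at 62.5, 6.90 and 63.1 FPKM in the vehicle libraries. Lgals3, galectin-3, did not follow them, with averages of 74.8, 67.9 and 80.3 FPKM, and the microglial chemokine receptor gene Cx3cr1 was at no more than 0.063 FPKM in any library. Of 13 genes of vessel and connective tissue cells, 7 had both B libraries below all others, against 20% of all tested genes. Of these 13, 5 were tested and all 5 were called between codes, against 47.4%. They summed to 99.9 to 109 FPKM in pair A, 14.8 to 22.5 FPKM in pair B and 168 to 170 FPKM in pair C, led by Acta2, Col3a1 and Pdgfrb, with Col1a2 at 0 in all libraries.

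The protein-coding genes whose profile was nearest to that of Spp1 were Cd14, Cd302 and Il10. Likeness was the root mean square difference of the log2(FPKM + 1) values of the 6 libraries, each gene centred on its mean, over 10293 genes, and it was 0.072, 0.098 and 0.12. Cd14, a lipopolysaccharide co-receptor, averaged 5.27, 0.903 and 11.7 FPKM (A, B, C). Il10, an anti-inflammatory cytokine, averaged 3.30, 0.565 and 9.44 FPKM. For Cartpt the nearest were Ifi27l2b, Nppc and Limd2, at 0.15, 0.18 and 0.18. Both members were compared in this way because they ranged over at least 1 on the log2 scale; the 6 libraries share 3 codes, so this is a description.

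**Figure D4:**
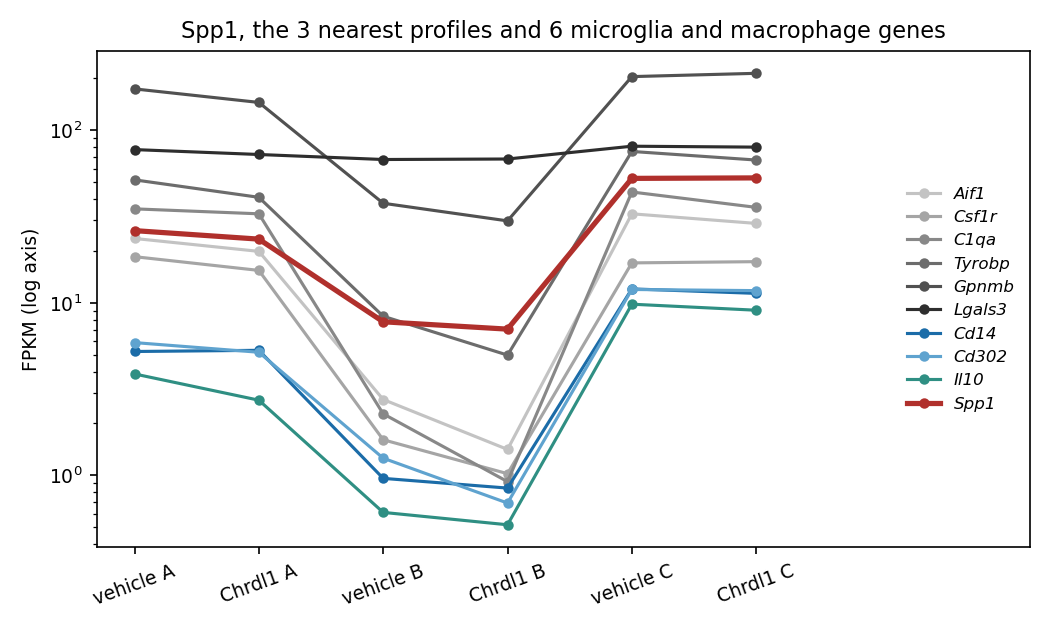
FPKM (vertical log axis) of Spp1 in red, of the 3 genes with the nearest profile in blue and green, and of 6 microglia and macrophage genes in greys, in the vehicle and Chrdl1 libraries of pairs A, B and C (horizontal axis). All of these but Lgals3 are several times lower in pair B; Spp1, Cd14, Cd302 and Il10 are also higher in pair C than in pair A.

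The osteopontin receptor genes ranged from low to high, with 4 at 1 FPKM or more in all libraries, and all 9 peptide handling genes were at that level. Of the 10 genes for osteopontin receptors, 8 were analysed and 5 tested; all 5 had their lowest mean in pair B, as did 3510 of all 10390 tested genes, and 4 were called between codes. Calls between codes, in this and the lists that follow, stand beside 47.4% of all tested genes. The highest were Itgb1, a shared integrin subunit, at 54.5, 37.1 and 62.2 FPKM (A, B, C), and Cd44, at 21.8, 16.3 and 29.5 FPKM. Itga5, a fibronectin receptor subunit, ranged from 4.54 to 6.51 FPKM. All 9 genes for peptide processing and storage were tested, and 3 were called between codes. They had a median spread of 0.25, against 1.30 for Cartpt; the highest were Scg2, a granin of secretory granules, at 481 to 648 FPKM, Cpe, a carboxypeptidase that trims peptides, at 462 to 587 FPKM, and Pam, which amidates peptides, at 252 to 313 FPKM. None of these 2 lists' genes was called with Chrdl1.

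Genes that accompany melanopsin in photosensitive RGCs were mostly more abundant than Opn4 itself. Adcyap1, the neuropeptide PACAP of these cells, was at 38.3 to 56.9 FPKM, and Tbx20, a T-box factor, at 6.80 to 13.5 FPKM. Trpc7, a channel subunit downstream of melanopsin, was at 4.28 to 6.77 FPKM and Rasgrp1 at 2.35 to 4.37 FPKM. Nmb was at 0.196 FPKM or less, from at most 3 reads. Of the 5 tested genes of this list, Opn4 included, 0 were called with Chrdl1 and 3 between codes. Tbx20 was lowest in pair C, as Tbr1 was, with averages of 13.3 FPKM in A, 12.0 FPKM in B and 7.05 FPKM in C (spread 0.83, limma adjusted p = 0.00013). Downstream of melanopsin, all 11 signalling genes analysed passed the filter, led by the arrestin gene Arrb1 (40.6 to 76.4 FPKM), the G protein gene Gnaq (46.3 to 69.5 FPKM) and the receptor kinase gene Adrbk1 (44.2 to 50.5 FPKM). With Chrdl1, 0 of these 11 were called; 7 were called between codes.

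Among genes linked to alpha RGCs, Nefh, the heavy neurofilament, varied less than Spp1. It was at 28.8 to 37.5 FPKM, with a code spread of 0.24 (limma adjusted p = 0.100), and Tpbg at 2.08 to 4.14 FPKM. Kcng4, a potassium channel subunit used to label alpha RGCs in mice, was at 0.850 and 1.04 FPKM in pair C and at 0.080 FPKM or less elsewhere. Il1rapl2 (0.323 to 0.858 FPKM) and Fes (0.099 to 0.705 FPKM) were low. Of the 3 tested genes of this list, Spp1 included, 0 were called with Chrdl1 and 2 between codes.

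Genes of the direction-selective and F-RGC lists differed in their lowest pair. Cdh6, a cadherin of direction-selective RGCs, averaged 26.5 FPKM in A, 33.1 FPKM in B and 15.9 FPKM in C, and Fstl4 averaged 12.8, 17.2 and 9.97 FPKM, so both were lowest in C, where Cartpt lay between. Mmp17 (0.975 to 1.44 FPKM) and Tbx5 (0.381 to 1.04 FPKM) were lower, and Trhr was at 0 in 5 libraries. Drd4, a dopamine receptor, was at 2.03 and 1.93 FPKM in pair C and at 0.213 FPKM or less elsewhere. In the F-RGC list Pou3f1, a POU factor, followed Foxp2 with its highest level in B (averages of 3.01, 4.64 and 3.37 FPKM). Anxa3 averaged 3.77, 0.602 and 4.03 FPKM, and Coch was at 0.535 FPKM or less. Of the 7 tested genes of the first list, Cartpt and Satb1 included, 5 were called between codes, and of the 3 of the second, Foxp1 included, 2; 0 of either were called with Chrdl1.

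Listed with Tbr1 were Calb2, the calcium buffer calretinin, at 42.6 to 77.0 FPKM, Sorcs3 at 2.14 to 4.21 FPKM and Cdh8 at 2.38 to 3.13 FPKM. Calb2 averaged 75.7 FPKM in A, 45.8 FPKM in B and 71.1 FPKM in C, so it was lowest where Tbr1 was highest. Sorcs3 was lowest in pair A. Jam2, the adhesion gene that marks J-RGCs, was at 2.95 and 3.67 FPKM in pair C and at 0.763 FPKM or less in the other pairs. It thus had its high pair where Tbr1 had its low one. Of the 4 tested genes of this list, Tbr1 included, 0 were called with Chrdl1 and 3 between codes.

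**Figure D5:**
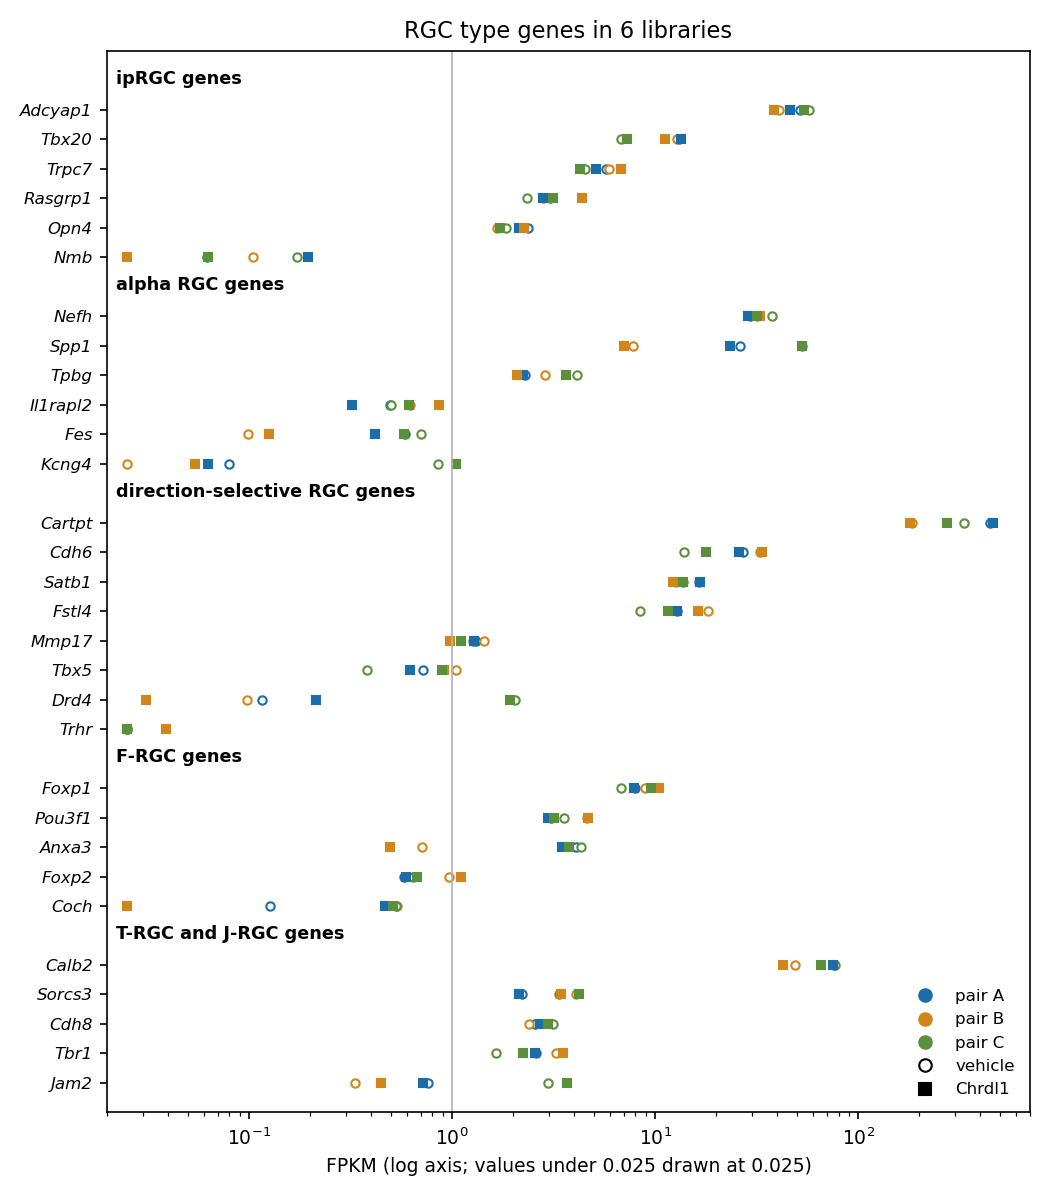
FPKM (horizontal log axis) of genes linked to 5 groups of RGC types, with 1 mark per library, open circles for vehicle and filled squares for Chrdl1, coloured by pair. The vertical line is at 1 FPKM; Kcng4, Drd4 and Jam2 stand higher in pair C, and the marks of low genes such as Nmb and Coch also spread within pairs.

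Relatives of the transcription factors were present beside the members. Of the 8 genes in this list 6 were tested, with 0 called for Chrdl1 and 3 between codes; all 6 log2 fold changes were below 0 (median -0.072), as were 6401 of the 10390 tested genes. Tbx2 was the highest T-box gene, at 19.2 to 24.7 FPKM, and Tbx3 was at 1.04 to 2.64 FPKM. Tbx21 was seen in 1 library only, at 0.031 FPKM. Foxp4, at 4.54 to 7.86 FPKM, lay near Foxp1, which was between 0.863 and 1.97 times its level, and Foxp3 was listed at 2.77 to 4.79 FPKM. Of 12 targets and partners, 9 were analysed and 4 tested, with 0 called for Chrdl1 and 2 between codes. Ctbp1, a co-repressor, was at 101 to 112 FPKM, Reln, a secreted guidance protein that Tbr1 controls in cortex, at 31.8 to 63.8 FPKM, and Gatad2b, of a chromatin remodelling complex, at 7.38 to 10.5 FPKM.

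The culture label was checked because the extraction protocol names visual cortex, where Tbr1 is also expressed, while all other labels name RGCs. The pan-RGC gene Rbpms was at 78.4 to 98.1 FPKM, and the highest of the 17 RGC markers analysed were Sncg (819 to 1105 FPKM), Stmn2 (646 to 873 FPKM) and Gap43 (504 to 827 FPKM). The cortical factors Neurod6 and Fezf2 were at no more than 0.382 and 0.340 FPKM, Rorb and Cux2 were at 14.9 to 27.9 and 3.94 to 5.62 FPKM, and Slc17a7, which photoreceptors and bipolar cells also express, was at 2.44 to 7.26 FPKM in pairs A and B and 54.3 to 57.5 FPKM in pair C. RGC markers summed to 3874 to 5163 FPKM, and the sum was 1.23 times higher in A than in B, a smaller step than that of Cartpt. By gene, however, 9 of the 17 were highest in B and 4 lowest there, against 3450 and 3510 of all 10390 tested genes. In pair C 12 of the 17 were lowest, against 2863 of all tested genes. The median B minus A of the 17 RGC markers was 0.11 on the log2 scale.

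Markers of other retinal cells were summed in the same way. The 11 photoreceptor genes summed to 5.04 to 7.82 FPKM in pairs A and B and to 99.9 and 106 FPKM in pair C, led by the cone transducin gene Gnat2 and the factor Crx, with Rcvrn next. The 10 bipolar genes summed to 62.2 to 73.1 FPKM in pairs A and B and 102 to 105 FPKM in pair C, with Isl1 and Prkca, which RGCs also express, the highest. The 15 amacrine genes summed to 146 to 182 FPKM, led by Pax6 and Gad2, also found in RGCs. The 6 horizontal cell genes summed to 47.3 to 61.8 FPKM, with Lhx1 at 0 in all libraries and Calb1, Sept4 and Onecut1 the highest. Glial genes summed to 544 to 612 FPKM in pair B and 1508 to 2449 FPKM in the others, led by Apoe, Clu and Dkk3, with Gfap at 1.24 FPKM or less and Aqp4 at most at 0.017 FPKM. On the log2 scale, B minus A was -3.68 for Apoe, but -0.18 for Clu and -0.35 for Dkk3. The median of the 6 tested glial genes was -0.48. All 6 had their lowest mean in pair B and 5 their highest in pair C, against 3510 and 4297 of all 10390 tested genes. The 9 oligodendrocyte genes, led by Mbp and Mog, summed to 14.1 to 20.2 FPKM. The part of these cells in the steps of Cartpt, Tbr1, Kcng4, Drd4 or Jam2 between pairs was not tested.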

How the data were processed

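Polyadenylated RNA of 6 libraries was sequenced. RNeasy columns and a stranded mRNA kit were used, per the labels. The submitters' processing notes name STAR 2.4.0k, HOMER 4.8.3, FastQC and build rn6; the annotation release is not given in the sources used here. In 1 table the authors deposited FPKM values with transcript lengths, and rn6 coordinates are those it lists. The members and gene lists were chosen with earlier results of these data known; named were all members, all genes of the RGC type lists and of the factors' relatives, the 3 highest genes of each other list and the 3 nearest profiles, and the markers Rbpms, Csf1r, C1qa, Cx3cr1, Gfap, Aqp4, Neurod6 and Fezf2 were added after their values were seen. Some genes that this rule would name are not reported here.

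FPKM times length came in whole multiples of 1 read for 99.55% to 99.99% of values, allowing the rounding of the table plus 0.02 reads, where 7.74% to 10.7% would by chance. This gave read totals of 14546600 (vehicle, pair B) to 26551800 (vehicle, pair C). The test was limma 3.58.1 (R 4.3.3; linear models with a trended empirical Bayes variance, two-sided) on log2(FPKM + 1), with Benjamini-Hochberg adjustment over 10390 genes. The scripts were tested on simulated data holding code differences like those measured: there the treatment fit without the block did not recover the changes put in, whereas the fit with the block recovered most of them. Deviations from group means correlated between the libraries of a code at 0.82, 0.86 and 0.84, so the codes were taken to pair the libraries; the code took up 88.9% of the variance and treatment 3.91%. The voom test used scaling by a trimmed mean of log ratios. Promoters were read from RefSeq on GRCr8, matched by symbol. Alternatives were the pseudocount, the filter, normalization, voom, robust eBayes, the block, a length correction and leaving out libraries. The test between codes without a whole code was added after seeing the data.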

Additional observations from a re-analysis of the deposited data

How the results depend on the processing

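No member was called with Chrdl1 in any of the 124 alternative fits of its fold change, and 23 of those turned its sign. Many of these fits lacked the replicate block. On simulated data the main fit, also without the block, did not recover added changes, so the lack of calls in such fits says little. Satb1 came to 0.004 with quantile normalization, alone or with the replicate block, and with median centring, to 0.005 with voom, to 0.02 with voom and the replicate block and to 0.002 with the length correction and the block. Cartpt came to 0.006 with quantile normalization, with or without the block. Leaving out 1 library gave -0.032 to 0.14 for Opn4, -0.062 to 0.28 for Tbr1, -0.13 to 0.085 for Satb1, 0.12 to 0.31 for Foxp1, -0.43 to 0.25 for Cartpt and -0.80 to 0.63 for Spp1; the codes are then not balanced over treatment. Leaving out both libraries of a code, under the block, gave -0.085 to 0.11 for Opn4, 0.041 to 0.19 for Tbr1, -0.028 to 0.009 for Satb1, 0.10 to 0.32 for Foxp1, -0.14 to 0.016 for Cartpt and -0.14 to -0.058 for Spp1.

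The count of genes called with Chrdl1 stayed at 0 except in the replicate block fits without a code, which gave 25 without A, 34 without B and 0 without C; none of these were members, and with 2 pairs most of a gene's spread is taken from other genes. The block changed no other call. The 4930 genes called between codes came to 3793 to 5495 under the other settings. They ran from 3148 (without the Chrdl1 library of pair A) to 5581 on leaving out 1 library, and from 2826 (without both libraries of A) to 4105 on leaving out a code. Spp1 and Cartpt were called between codes in every fit, with spreads of 1.06 to 2.82 and 0.58 to 1.40; without A, Satb1 was lost (adjusted p = 0.537), and Tbr1 was lost without B (0.133) or C (0.0943). The causes were not tested. Depth limits Opn4, Tbr1 and Foxp2 most, at 54 to 171 reads per library.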

Other observations

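Other genes linked to RGC types were called in 0 of 14 tested cases with Chrdl1, at an adjusted p under 0.05 by limma, and in 11 of 14 between codes, against 47.4% of all tested genes. Highest were Tac1, the substance P precursor, at 130 to 230 FPKM, Ebf3, a helix-loop-helix factor, at 29.3 to 55.5 FPKM and Ebf1 at 18.3 to 25.2 FPKM. Penk, the enkephalin precursor, averaged 3.29 FPKM in A, 1.59 FPKM in B and 13.1 FPKM in C, and Amigo2, an adhesion gene, averaged 12.1, 9.10 and 26.2 FPKM. Bhlhe22, a helix-loop-helix factor, averaged 0.431, 0.382 and 3.09 FPKM. Pvalb, parvalbumin, was lowest in pair B like Spp1 and Cartpt, with averages of 11.6, 5.20 and 14.1 FPKM. Igf1 averaged 9.60, 9.61 and 9.58 FPKM, with single libraries from 7.88 to 11.3 FPKM. The 5 genes after Ebf1 were chosen once their values had been seen.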
